A study of Homo sapiens with 6 samples.

Results

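The kinesin, dynein and dynactin genes are the motors that move cargo, organelles and chromosomes along microtubules. They were taken by gene symbol from a table of 26372 genes: the numbered kinesins (KIF), the kinesin light chains (KLC1 to KLC4), the cytoplasmic dynein subunits (DYNC1, DYNC2, DYNLL, DYNLT1, DYNLT3 and DYNLRB) and the dynactin subunits DCTN1 to DCTN6, ACTR1A and ACTR1B. The symbol pattern gave 64 genes and used no measured value, but it was set with earlier results of these data known. Symbols outside this pattern, such as KIFC1, KIFAP3 and CENPE, are not members and are described separately.

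RNA was sequenced from SH-SY5Y cells, a human neuroblastoma line. The cells carried a lentiviral pLVX-U6-shRNA1 vector with either a control hairpin (shNC) or a hairpin against TDP-43 (shTDP43), the RNA-binding protein encoded by TARDBP. The knockdown cells were selected with puromycin at 2 µg/mL over 2 weeks and kept at 1 µg/mL. The control samples carry the same protocol text, which does not spell out their selection or say whether clones were picked. Each group had 3 libraries, and values are FPKM, fragments per kilobase of gene scaled to library size. Nothing in the labels ties the libraries of a group to separate cultures or infections. The p-values therefore rest on the spread among these 6 samples alone, and that spread may be technical. No other TDP-43 hairpin and no rescue is among the samples, so effects of this hairpin apart from TDP-43 cannot be told apart from its effect on TDP-43.

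Kinesins mostly walk to the plus end of microtubules, which in axons points away from the cell body, and cytoplasmic dynein walks to the minus end. A kinesin-1 motor holds a pair of KIF5 heavy chains and a pair of light chains that bind cargo. Dynein needs dynactin, a complex built on a short filament of the actin-related protein ARP1, and an adaptor to move processively. Mutations in KIF5A and DCTN1 are known in motor neuron disease, and cells also use a separate set of kinesins to build the spindle and divide.

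TARDBP stood at 56.1, 56.2 and 56.6 FPKM in shNC and 36.0, 33.1 and 34.8 FPKM in shTDP43. Every shTDP43 library lay below every shNC library, with 61.5% of the control level (limma adjusted p = 2.84e-06; exact two-sided permutation p = 0.1, the smallest that 3 against 3 allows). The shNC libraries listed 18217 to 18334 genes above 0 and the shTDP43 libraries 17945 to 18025, and relative depth, estimated from steps among low values, ran from 1.15 to 1.28 in shNC and from 1 to 1.11 in shTDP43. Depth was thus higher in each shNC library, and its part in the results was not tested. Across genes, r was 0.993 to 0.995 within a group and 0.980 to 0.982 between groups. Of 15 noradrenergic neuroblast markers 14 reached the level tested, DBH among them at 168, 171 and 170.3 FPKM in shNC and 193, 186 and 193 FPKM in shTDP43, whereas TH, the tyrosine hydroxylase gene, was at or near 0 (0 to 0.207 FPKM). Their sum was 2723 to 2733 FPKM in shNC and 2499 to 2548 FPKM in shTDP43, with 7 higher and 6 lower. The sum rests largely on abundant genes that moved in opposite directions, and so does not describe the markers as a set. From shNC to shTDP43 the mean of STMN2 fell from 678 to 290 FPKM, and that of CHGA rose from 296 to 520 FPKM. The mesenchymal markers summed to between 511 and 519 FPKM in shNC and between 454 and 467 in shTDP43, and of 10 tested 8 were lower and 2 higher, with PRRX1 and COL1A2 near 0. The Schwann and glial markers summed to between 20.0 and 21.5 against between 9.34 and 9.90 FPKM, with 2 of 2 tested lower and FABP7 at 0 throughout. The counts of higher and lower markers are of genes with a limma adjusted p under 0.05. Among all 13263 tested genes 18.5% passed as higher and 19.6% as lower. The part of these marker shifts in the motor genes was not tested.

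Of the 64 members, 54 had a mean of at least 1 FPKM and were tested, and 10 were not. Levels reached from a mean of 1.26 FPKM for KIF21B to 230.6 FPKM for the light chain gene DYNLL1, with a median of 21.7 FPKM. FPKM is per length of gene, so levels of different genes can be set side by side. Among transport kinesins the order in shNC was KIF21A, KIF5B, KIF5C, KIF1B and KIF1A, and in shTDP43 KIF1A lay above KIF1B in every library. Across both groups the dynactin genes other than ACTR1B lay between 25.6 and 47.9 FPKM in every library. In shNC the neighbours KIF5B and KIF5C did not overlap (75.0 to 76.7 against 68.1 to 73.3 FPKM), whereas DCTN2 and DCTN6 did (46.7 to 47.9 against 43.4 to 47.9 FPKM). KIF2B, a spindle kinesin, was listed at 0 in all 6 libraries.

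**Figure D1:**
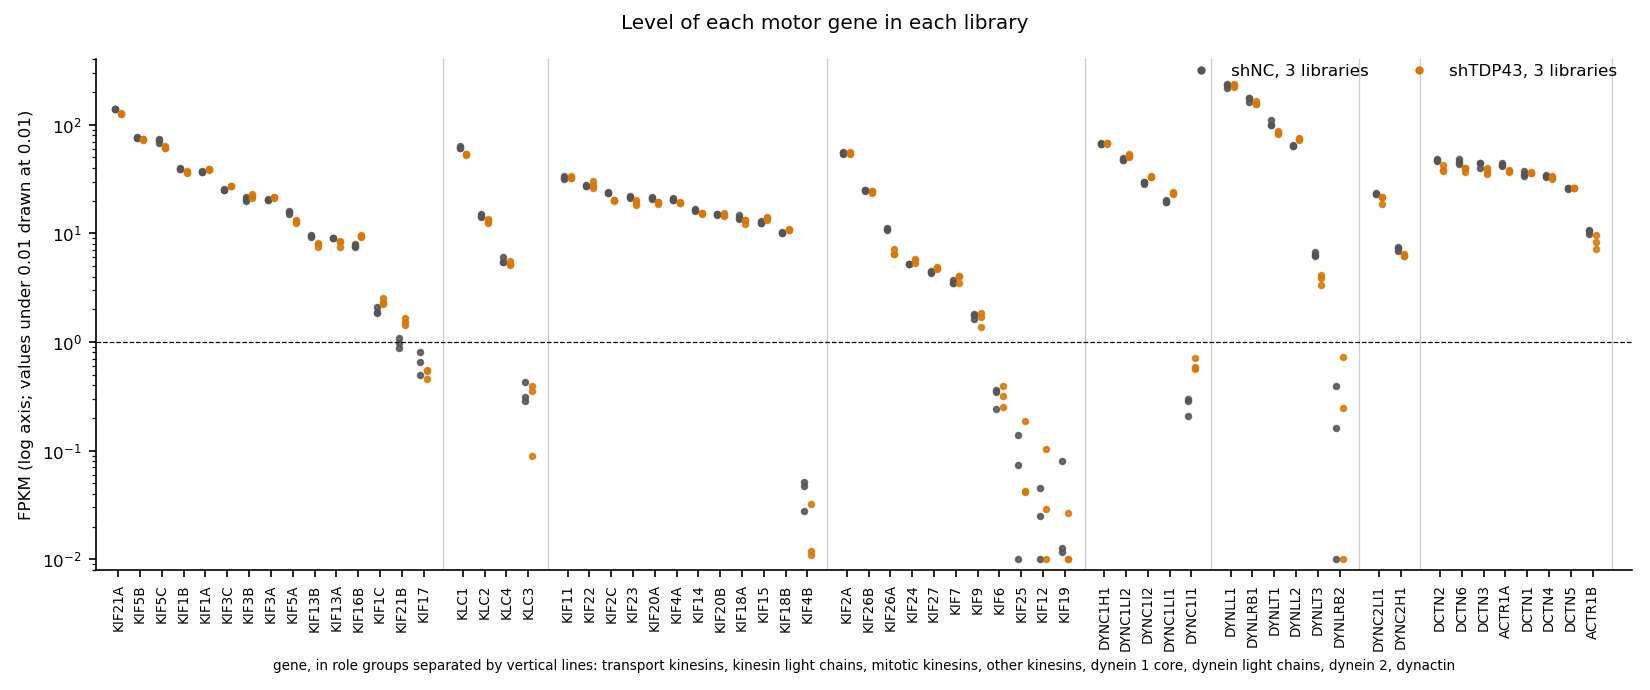
FPKM of each motor gene in each library on a log axis, grouped by role, with shNC in grey and shTDP43 in orange; the dashed line marks 1 FPKM. KIF2B, at 0 in all libraries, is not drawn. DYNLL1 is the highest gene at a mean of 230.6 FPKM, and members under the dashed line, such as DYNC1I1, were not tested.

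In shTDP43, 29 of the 54 tested members passed a limma adjusted p under 0.05, 8 higher and 21 lower. Of all 13263 tested genes 38.1% passed, with 18.5% higher and 19.6% lower. The 8 that rose were KIF3C, KIF16B, KIF21B, KIF15, DYNC1I2, DYNC1LI1, DYNC1LI2 and DYNLL2. Leaving out shNC replicate 2, shNC replicate 3 or shTDP43 replicate 1 reduced the 8 to 5. Leaving out shNC replicate 1 and shTDP43 replicate 3 together did so too. In these fits the share of all tested genes called was also smaller, between 25.0% and 33.0%. The falls took in 5 of 8 dynactin genes and both dynein 2 genes. They also took in the neuronal kinesin-1 heavy chains KIF5A and KIF5C and the light chains KLC1 and KLC2. Of 14 tested transport kinesins 6 were lower and 3 higher, or 64.3% called. Of 11 tested mitotic kinesins 3 were lower and 1 higher, or 36.4% called. The changes were mostly small: 3 of the 29 exceeded 0.3 in log2 size (KIF26A, DYNLT3 and KIF21B). The median size was 0.19, against 0.24 in all genes that passed. With an shNC mean of 0.988 FPKM, KIF21B reached a mean of 1 FPKM only through its shTDP43 libraries. Over the 54 the median difference was -0.05, and over all tested genes it was 0.00. The groups did not overlap in 39 of the 54, 24 of them lower, while 50.7% of all tested genes did not overlap.

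**Figure D2:**
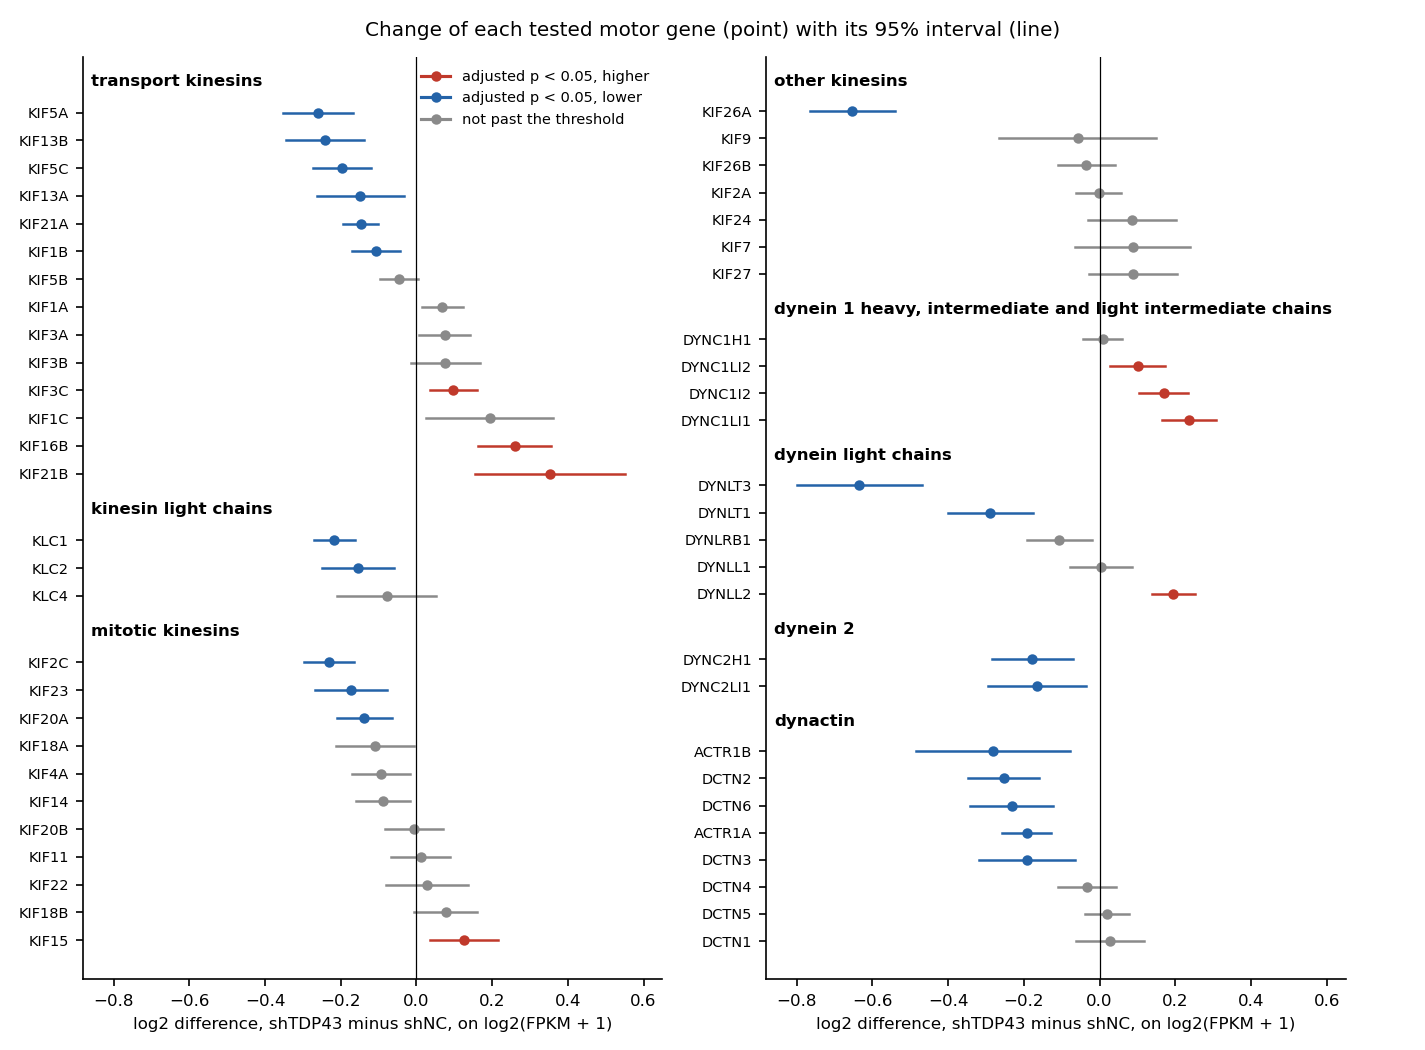
Difference of each of the 54 tested motor genes between shTDP43 and shNC on the log2(FPKM + 1) scale (point) with its 95% interval, not adjusted for the number of genes (line), by role. The 5 lower dynactin genes and the 3 higher dynein 1 genes lie on opposite sides of 0, and KIF26A and DYNLT3 lie farthest to the left.

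Kinesin-1 genes fell in 4 of 6 tested cases, and none rose, beside 19.6% lower and 18.5% higher among all tested genes. Of the heavy chains, the neuronal forms KIF5A and KIF5C fell, while the widely expressed KIF5B did not pass the test. KIF5A (RefSeq GRCh38.p14, as for all positions here, chromosome 12, 57550044 to 57586633) stood at 15.6, 16.2 and 15.1 FPKM in shNC and 13.0, 12.5 and 13.2 FPKM in shTDP43. No shTDP43 library reached the lowest shNC library, and the mean was 82.4% of control (log2 difference -0.26, SE 0.04; limma adjusted p = 0.00151). KIF5C (chromosome 2, 148875227 to 149026759), the more abundant neuronal form, stood at 73.3, 72.2 and 68.1 FPKM in shNC and 61.6, 63.8 and 60.6 FPKM in shTDP43. It was lower in all 3 shTDP43 libraries, at 87.1% of control (log2 difference -0.20, SE 0.03; limma adjusted p = 0.00252). KIF5B, the most abundant of the 3, stood at 76.7, 75.9 and 75.0 FPKM in shNC and 73.1, 74.4 and 73.1 FPKM in shTDP43. Its groups did not overlap, but the difference was small (-0.05, 95% interval -0.10 to 0.00; limma adjusted p = 0.134).

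The light chains link the heavy chains to cargo. KLC1 (chromosome 14, 103629211 to 103701544), the main light chain of neurons, stood at 61.5, 63.2 and 61.6 FPKM in shNC and 53.5, 52.4 and 54.0 FPKM in shTDP43. All shTDP43 libraries were lower, with a mean of 85.8% of control (log2 difference -0.22, SE 0.02; limma adjusted p = 0.000293). KLC2 stood at 14.5, 15.1 and 14.1 FPKM in shNC and 12.5, 13.5 and 13.0 FPKM in shTDP43, 89.2% of control (limma adjusted p = 0.0189), and its groups did not overlap either. The KLC2 call was lost without shNC replicate 2 or shTDP43 replicate 1 (limma adjusted p = 0.0585 to 0.0687). KLC4 had 6.01, 5.41 and 5.50 FPKM in shNC and 5.06, 5.26 and 5.53 FPKM in shTDP43, with overlapping groups (95% interval -0.21 to 0.05; limma adjusted p = 0.312), and KLC3 did not exceed 0.427 FPKM. Exons of KLC1 share 1452 bases with the repair gene XRCC3 on the other strand and 1989 bases with another protein-coding gene model on the same strand, so its value is uncertain to that extent. On the same strand, DCTN5 shares 3009 exon bases with a noncoding gene, DCTN1 665 with a protein-coding gene model and KIF1B 293 with another RNA gene. Their values are uncertain to that extent too. Overlaps with genes of the other strand, shorter than that of KLC1, affect further members named here. Among them are DYNC1LI2 (1094 bases with an antisense gene), DCTN6 (248 bases) and KIF13B (585 and 279 bases). The use of strand in the counting is not known here.

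The 3 heavy chain genes together went from 163 ± 3.94 to 148 ± 1.96 FPKM (mean and SD of 3 libraries), or 91.2% of control. The light chains summed to 86.9% of control. Within the heavy chains the share of KIF5B was 46.3, 46.2 and 47.4% in shNC and 49.5, 49.4 and 49.8% in shTDP43. The share was higher in each shTDP43 library. The share of KIF5C was 43.7 ± 0.618% in shNC and 41.8 ± 0.535% in shTDP43, and that of KIF5A was 9.61 ± 0.221% and 8.69 ± 0.364% (SD, n = 3). In an exact two-sided permutation test each of these 3 shares gave p = 0.1, the smallest possible (Benjamini-Hochberg adjusted p = 0.143 over 10 shares computed). The shares were chosen after the values were seen.

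**Figure D3:**
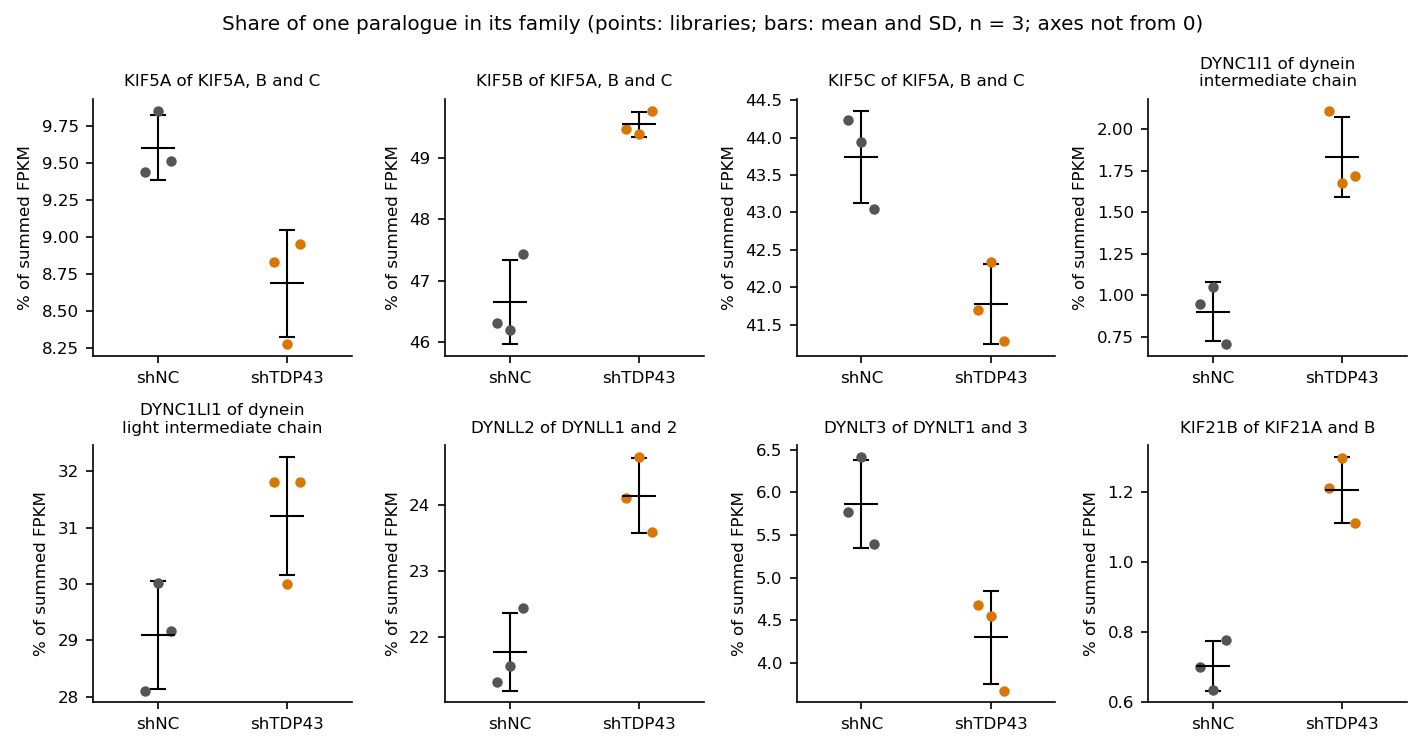
Percentage of the summed FPKM of a gene family held by 1 paralogue in each library (points), with the mean and SD of 3 libraries (bars); axes do not start at 0. KIF5B, DYNC1I1, DYNLL2 and KIF21B took a larger share in every shTDP43 library than in any shNC library, KIF5A, KIF5C and DYNLT3 a smaller one, and DYNC1LI1 overlapped. Of the 10 shares computed, those of KIF3C and KLC1 are not drawn, and their groups overlapped too.

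Kinesin-2 motors pair KIF3A with KIF3B or KIF3C and serve cilia and vesicle transport. KIF3C (chromosome 2, 25926598 to 25982497) stood at 25.8, 24.9 and 25.3 FPKM in shNC and 27.1, 27.2 and 27.1 FPKM in shTDP43. The shTDP43 libraries were all higher, at 107% of control (log2 difference 0.10, SE 0.03; limma adjusted p = 0.0215). The call was lost without any 1 library other than shNC replicate 1 (limma adjusted p = 0.0511 to 0.0780). KIF3A at 106% and KIF3B at 106% of control did not pass (limma adjusted p = 0.0826 and 0.163), and the 3 genes summed to 106% of control. KIF17, a further kinesin-2 gene, had 0.660, 0.810 and 0.494 FPKM in shNC and 0.456, 0.539 and 0.551 FPKM in shTDP43 and was not tested.

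Of the kinesin-3 motors, which carry vesicles and organelles, 3 fell, 1 rose and 2 did not pass. Among all tested genes 19.6% were lower and 18.5% higher. KIF1A, the carrier of synaptic vesicle precursors, stood at 36.4, 37.2 and 36.8 FPKM in shNC and 38.9, 38.7 and 38.3 FPKM in shTDP43. Its groups did not overlap, at 105% of control, but it missed the threshold (log2 difference 0.07, 95% interval 0.01 to 0.12; limma adjusted p = 0.0522). KIF1B, which carries mitochondria and synaptic vesicle precursors, fell to 92.7% of control, from 40.2, 39.4 and 39.2 FPKM in shNC to 35.8, 36.7 and 37.7 FPKM in shTDP43 (log2 difference -0.11, SE 0.03; limma adjusted p = 0.0176). All 3 shTDP43 libraries were lower. Leaving out shNC replicate 1 or shTDP43 replicate 1 ended the call (limma adjusted p = 0.0580 and 0.0563), as did leaving out shNC replicate 1 and shTDP43 replicate 3 together (limma adjusted p = 0.0532). KIF1C had 2.10, 1.86 and 1.89 FPKM in shNC and 2.52, 2.34 and 2.26 FPKM in shTDP43 (limma adjusted p = 0.0684).

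KIF13B, whose cargo includes membrane proteins of the discs-large complex, stood at 9.69, 9.51 and 9.20 FPKM in shNC and 7.51, 8.14 and 7.91 FPKM in shTDP43. It was lower in each shTDP43 library, at 82.9% of control (log2 difference -0.24, SE 0.04; limma adjusted p = 0.00376). Its close relative KIF13A, a carrier of mannose 6-phosphate receptors, stood at 9.12, 9.05 and 9.02 FPKM in shNC and 8.32, 7.50 and 8.44 FPKM in shTDP43. The shTDP43 values were lower, with replicate 2 the lowest, at 89.2% of control (limma adjusted p = 0.0463), but the call was lost without any 1 library other than shTDP43 replicate 3 (limma adjusted p = 0.0591 to 0.115). KIF16B (chromosome 20, 16272104 to 16573448), which moves early endosomes, went the other way, with 7.52, 7.94 and 7.58 FPKM in shNC and 9.21, 9.60 and 9.35 FPKM in shTDP43. Each shTDP43 library was higher, at 122% of control (log2 difference 0.26, SE 0.04; limma adjusted p = 0.00198).

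The kinesin-4 motors KIF21A and KIF21B restrain microtubule growth. KIF21A (chromosome 12, 39293228 to 39443120) was the most abundant kinesin, with 141, 139 and 139 FPKM in shNC and 125, 127 and 127 FPKM in shTDP43. It fell in every library to a mean of 90.2% of control (log2 difference -0.15, SE 0.02; limma adjusted p = 0.000859). KIF21B (chromosome 1, 200969390 to 201023714), a form found in neurons and lymphocytes, stood at 0.989, 0.889 and 1.09 FPKM in shNC and 1.53, 1.67 and 1.42 FPKM in shTDP43. It was higher in each shTDP43 library, at 156% of control (log2 difference 0.35, SE 0.09; limma adjusted p = 0.0136). It was the tested member nearest the filter, and 2 of its 3 shNC libraries lay under 1 FPKM. Its shNC mean was 0.988 FPKM, so it met the filter of 1 FPKM only through the shTDP43 libraries. The call did not survive leaving out shNC replicate 1 and shTDP43 replicate 3 together (log2 difference 0.39, limma adjusted p = 0.0596). Those are the libraries with the least SNORD3A, a small nucleolar RNA. KIF21B made up 0.703 ± 0.0715% of the KIF21 sum in shNC and 1.21 ± 0.0936% in shTDP43 (SD, n = 3), so the sum followed KIF21A.

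**Figure D4:**
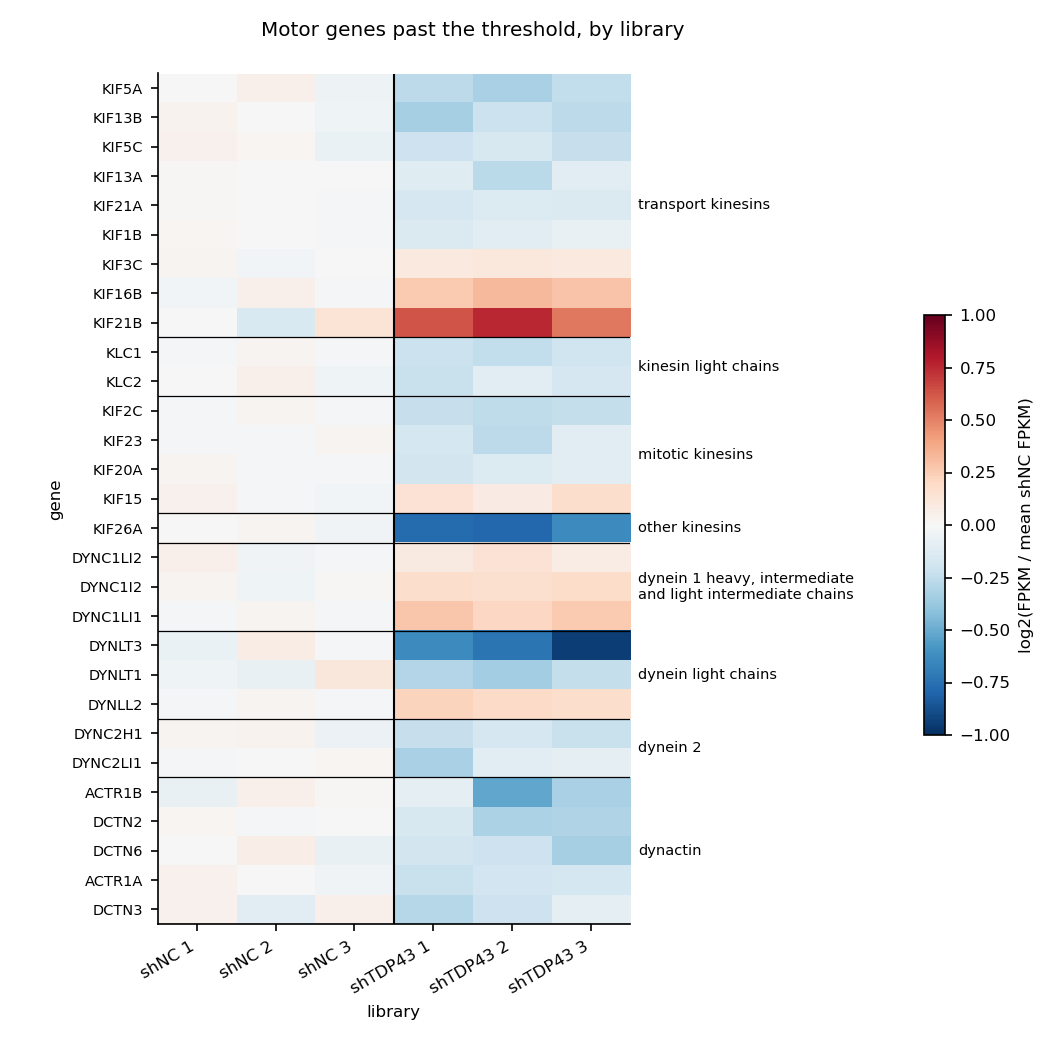
Level of each of the 29 motor genes past the threshold in each library, as log2 of FPKM over the shNC mean (colour), ordered by role. Columns 1 to 3 are shNC and 4 to 6 shTDP43. KIF26A and DYNLT3 are the darkest blue rows and KIF21B the darkest red, and within shTDP43 DCTN2 and ACTR1B vary between libraries.

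Cytoplasmic dynein 1 is built on the heavy chain DYNC1H1, which holds the motor. DYNC1H1 (chromosome 14, 101964573 to 102056443) did not pass the test, with 67.2, 66.2 and 66.0 FPKM in shNC and 65.9, 67.1 and 67.5 FPKM in shTDP43. The groups overlapped (log2 difference 0.01, 95% interval -0.04 to 0.06; limma adjusted p = 0.799). Of the 4 tested heavy, intermediate and light intermediate chain genes 3 rose and none fell. Of the 5 tested light chain genes, described below, 1 rose and 2 fell. Among all tested genes 18.5% were higher and 19.6% lower. DYNC1LI1 (chromosome 3, 32525974 to 32570858), a light intermediate chain that binds adaptors, stood at 19.5, 20.1 and 19.6 FPKM in shNC and 23.9, 22.8 and 23.6 FPKM in shTDP43. The groups were well apart, at 119% of control (log2 difference 0.24, SE 0.03; limma adjusted p = 0.000724). DYNC1LI2, its paralogue and the more abundant of the pair, had 49.8, 46.9 and 47.6 FPKM in shNC and 51.2, 53.2 and 50.6 FPKM in shTDP43. It rose to 107% of control (limma adjusted p = 0.0353), and the call was lost without shNC replicates 2 or 3 or shTDP43 replicates 1 or 2, each alone (limma adjusted p = 0.0617 to 0.114).

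The intermediate chain DYNC1I2, a scaffold that binds dynactin, stood at 29.9, 28.4 and 29.6 FPKM in shNC and 33.0, 32.8 and 33.4 FPKM in shTDP43. Each shTDP43 library was higher, at 113% of control (log2 difference 0.17, SE 0.03; limma adjusted p = 0.00237). The neuronal form DYNC1I1 lay below the filter, with 0.285, 0.302 and 0.210 FPKM in shNC and 0.713, 0.558 and 0.583 FPKM in shTDP43. Its groups did not overlap, and among the 10 untested members it was the 1 with that pattern. Tested without a filter, its log2 difference was 0.35 (SE 0.05; limma adjusted p = 0.00496), with a mean of 233% of control. It made up 0.900 ± 0.177% of the intermediate chain sum in shNC and 1.83 ± 0.241% in shTDP43 (SD, n = 3).

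The dynein light chains, which sit on the intermediate chains, moved in both directions. DYNLT3 (chromosome X, 37838836 to 37847571) stood at 6.13, 6.75 and 6.36 FPKM in shNC and 4.13, 3.87 and 3.35 FPKM in shTDP43. The groups did not overlap, and at 59.0% of control it was the lowest of the called members (log2 difference -0.63, SE 0.07; limma adjusted p = 0.000334). DYNLT1, of the same family and far more abundant, had 100.2, 98.4 and 112 FPKM in shNC and 84.2, 81.3 and 87.8 FPKM in shTDP43. It fell to 81.6% of control (log2 difference -0.29, SE 0.05; limma adjusted p = 0.00250), with no overlap, and DYNLT3 took 5.86 ± 0.516% of the pair's sum in shNC and 4.30 ± 0.546% in shTDP43 (SD, n = 3; exact two-sided permutation p = 0.1, Benjamini-Hochberg adjusted p = 0.143).

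DYNLL1 and DYNLL2 encode the 2 forms of LC8, a hub protein with many partners outside dynein. DYNLL2 (chromosome 17, 58083419 to 58095542) stood at 63.3, 65.3 and 63.5 FPKM in shNC and 74.9, 73.1 and 72.3 FPKM in shTDP43. It rose in every library to 115% of control (log2 difference 0.19, SE 0.02; limma adjusted p = 0.000586). DYNLL1, the most abundant motor gene, had 234, 238 and 219.6 FPKM in shNC and 236, 223 and 234 FPKM in shTDP43, with overlapping groups (95% interval -0.08 to 0.09; limma adjusted p = 0.942). DYNLL1 has processed copies elsewhere in the genome, and the sources used here do not give how reads with several matches were counted. DYNLRB1, a roadblock light chain, had 177, 162 and 175 FPKM in shNC and 156, 156 and 164 FPKM in shTDP43 and missed the threshold (95% interval -0.19 to -0.02; limma adjusted p = 0.0537), and DYNLRB2 did not exceed 0.729 FPKM.

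Dynein 2 moves cargo back down the cilium, and both of its members in the set fell, beside 19.6% lower among all tested genes. Its intermediate chain genes lie outside the set. Of these WDR60 rose to 109.9% of control (limma adjusted p = 0.0266), and WDR34 at 107% did not pass (limma adjusted p = 0.238). The heavy chain DYNC2H1 stood at 7.37, 7.42 and 6.94 FPKM in shNC and 6.18, 6.46 and 6.23 FPKM in shTDP43, 86.8% of control (log2 difference -0.18, SE 0.05; limma adjusted p = 0.0182). The light intermediate chain DYNC2LI1 had 22.8, 23.0 and 23.4 FPKM in shNC and 18.5, 21.4 and 21.6 FPKM in shTDP43, 88.9% of control (limma adjusted p = 0.0475). Neither gene's groups overlapped, though shTDP43 replicate 1 lay well below replicates 2 and 3 for DYNC2LI1. Leaving out shNC replicate 1, shNC replicate 2 or shTDP43 replicate 1 ended both calls, and leaving out shNC replicate 3 ended that of DYNC2LI1 (limma adjusted p = 0.0515 to 0.0645 for DYNC2H1 and 0.0581 to 0.115 for DYNC2LI1).

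Dynactin genes fell in 5 of 8 cases and rose in 0, against a background of 19.6% lower. The 8 genes had a median difference of -0.19. The ARP1 filament is encoded by ACTR1A and ACTR1B. ACTR1A (chromosome 10, 102479229 to 102502712), the main form, stood at 44.4, 43.0 and 42.1 FPKM in shNC and 37.0, 37.7 and 38.2 FPKM in shTDP43. All shTDP43 libraries were lower, at 87.2% of control (log2 difference -0.19, SE 0.03; limma adjusted p = 0.00124). ACTR1B had 9.87, 10.8 and 10.5 FPKM in shNC and 9.72, 7.22 and 8.27 FPKM in shTDP43, 81.0% of control (limma adjusted p = 0.0366). The shTDP43 values were spread, replicate 1 lay just below the lowest shNC library, and the call was lost without any 1 library other than shTDP43 replicate 1 (limma adjusted p = 0.0556 to 0.1002).

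The shoulder of dynactin, which projects from the filament, holds DCTN1, DCTN2 and DCTN3. DCTN2 (chromosome 12, 57530051 to 57547192), which encodes dynamitin, stood at 47.9, 46.7 and 47.2 FPKM in shNC and 42.3, 37.9 and 38.4 FPKM in shTDP43. It was lower in each shTDP43 library, at 83.6% of control (log2 difference -0.25, SE 0.04; limma adjusted p = 0.00200). DCTN2 and KIF5A, which also fell, lie 2851 bases apart on the same chromosome, the 1 pair of members found in such proximity (under 100000 bases). DCTN3, the smallest shoulder protein, had 44.6, 40.1 and 44.8 FPKM in shNC and 35.5, 37.4 and 40.3 FPKM in shTDP43. Its groups overlapped, since shTDP43 replicate 3 lay above shNC replicate 2. It passed at 87.3% of control (limma adjusted p = 0.0272), a call that was lost without shNC replicates 1 or 3 or shTDP43 replicates 1 or 2, each alone (limma adjusted p = 0.0726 to 0.0852).

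DCTN1 (chromosome 2, 74361155 to 74391866) encodes p150Glued, the arm that binds dynein and microtubules. It had 37.6, 35.0 and 33.8 FPKM in shNC and 35.7, 36.5 and 36.3 FPKM in shTDP43, and the groups overlapped (log2 difference 0.03, 95% interval -0.06 to 0.12; limma adjusted p = 0.609). At the pointed end of the filament, DCTN6 fell, from 45.8, 47.9 and 43.4 FPKM in shNC to 40.2, 39.7 and 36.4 FPKM in shTDP43. The groups did not overlap, at 84.8% of control (log2 difference -0.23, SE 0.05; limma adjusted p = 0.00613). Its neighbours in that complex, DCTN4 at 97.7% and DCTN5 at 101% of control, did not pass (95% intervals -0.11 to 0.04 and -0.04 to 0.08). Of the subunits outside the 64 genes, the capping protein gene CAPZB fell to 89.7% of control (limma adjusted p = 0.00463), and ACTR10, CAPZA1 and CAPZA2 stood at 91.8%, 104% and 100.2% and did not pass.

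Mitotic kinesins build the spindle, move chromosomes and separate the daughter cells. Of 13 such genes 11 were tested, with 3 lower and 1 higher and a median difference of -0.09. That is 36.4% called, near the background of 38.1%. KIF2C (chromosome 1, 44739837 to 44767767), the microtubule depolymerase MCAK, stood at 23.5, 24.2 and 23.4 FPKM in shNC and 20.2, 19.9 and 20.1 FPKM in shTDP43. All shTDP43 libraries were lower and close together, at 84.6% of control (log2 difference -0.23, SE 0.03; limma adjusted p = 0.000530). KIF23 (chromosome 15, 69414349 to 69448427), a subunit of centralspindlin in cytokinesis, stood at 21.4, 21.6 and 22.2 FPKM in shNC and 19.2, 18.1 and 20.2 FPKM in shTDP43. It fell without overlap to 88.3% of control (limma adjusted p = 0.0124). KIF20A, which brings the chromosomal passenger complex to the spindle midzone, had 21.6, 20.9 and 21.1 FPKM in shNC and 18.7, 19.2 and 19.6 FPKM in shTDP43, 90.4% of control (limma adjusted p = 0.0102), a call that ended without shNC replicate 1 and shTDP43 replicate 3 together (limma adjusted p = 0.0504).

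KIF15 (chromosome 3, 44761794 to 44868687), which helps to hold the spindle bipolar, was the 1 that rose, with 13.0, 12.4 and 12.3 FPKM in shNC and 13.9, 13.3 and 14.2 FPKM in shTDP43. Each shTDP43 library was higher, at 109.9% of control (limma adjusted p = 0.0347), but the call was lost without shNC replicates 2 or 3 or shTDP43 replicates 1 or 3, each alone (limma adjusted p = 0.0819 to 0.103). KIF11, the motor that pushes spindle poles apart and the most abundant of the set, had 32.1, 31.9 and 33.8 FPKM in shNC and 32.2, 34.0 and 32.4 FPKM in shTDP43, with overlapping groups (log2 difference 0.01, 95% interval -0.07 to 0.09; limma adjusted p = 0.825). The other 6 (KIF4A, KIF14, KIF18A, KIF18B, KIF20B and KIF22) ran from 92.2% to 106% of control and did not pass. KIF4B, a retrocopy of KIF4A, did not exceed 0.0515 FPKM.

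Beside these, 25 proliferation markers summed to between 1088 and 1108 FPKM in shNC and between 1029 and 1042 FPKM in shTDP43. Of them 11 were lower and 3 higher, or 56% called. Among all tested genes 38.1% were called, 19.6% lower and 18.5% higher. MKI67 was at 90.7% and TOP2A at 84.1% of control, whereas the replication gene MCM2 was at 111%, and the kinetochore kinesin CENPE stood at 15.9, 16.3 and 17.0 FPKM in shNC and 13.6, 14.0 and 13.0 FPKM in shTDP43. The part of cell division in the values of the mitotic kinesins was not tested. In such bulk libraries, fewer dividing cells and less RNA per cell cannot be told apart.

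**Figure D5:**
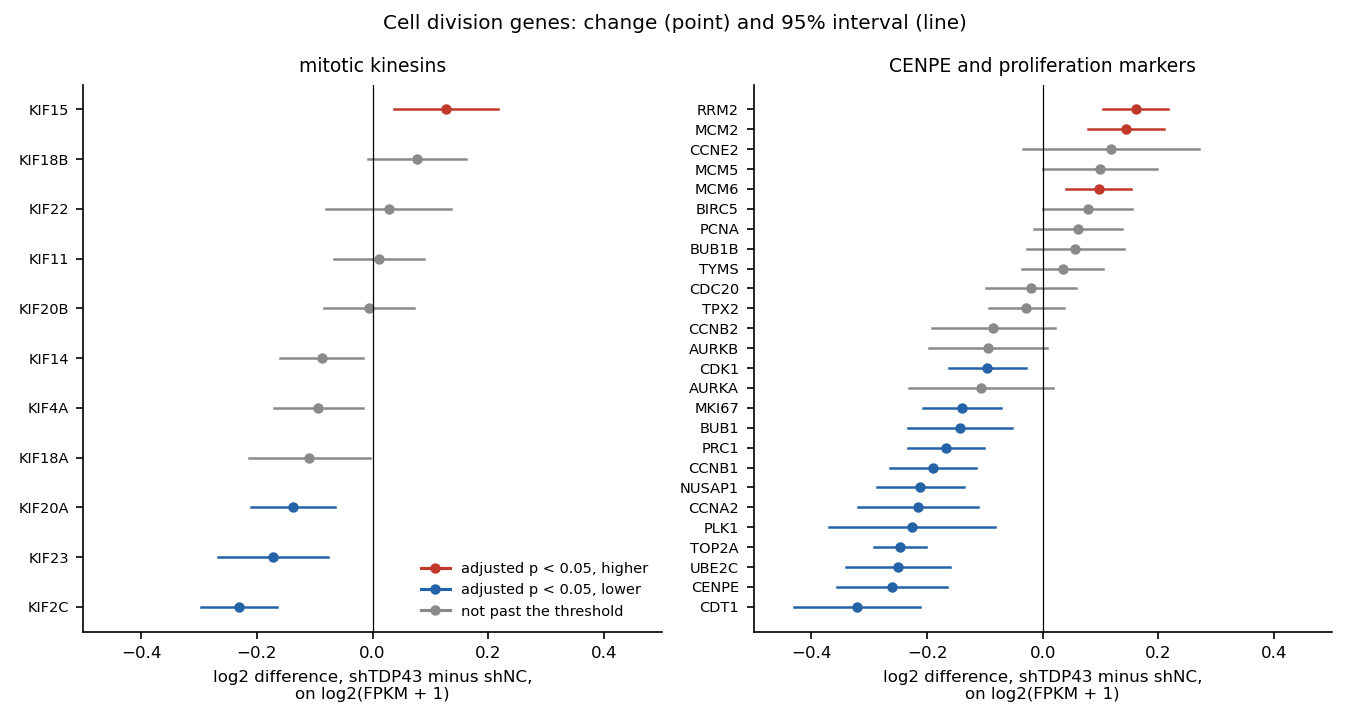
Difference between shTDP43 and shNC on the log2(FPKM + 1) scale (point) with its 95% interval, not adjusted for the number of genes (line), for the 11 tested mitotic kinesins (left) and for CENPE and 25 proliferation markers (right). KIF2C and CDT1 lie lowest in their panels, and KIF15 and RRM2 highest.

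A feature of the mitotic kinesins that the choice of genes did not use is the sequence of their promoters. Many genes of late cell cycle phases carry a CHR element (TTTGAA) near the start site, often with CCAAT boxes before it. RefSeq promoter windows of GRCh38.p14, from 250 bases before to 50 bases after the start site, were found for 54 of the 64 members. With both strands searched, TTTGAA was present in 9 of 13 mitotic kinesins (69.2%) and in 1 of 12 transport kinesins (8.33%), KIF5B. It was in 9.61% of the windows of 10435 tested genes and in 15.4% of all 27305 windows. CCAAT was present in 10 of 13 mitotic (76.9%) and 3 of 12 transport kinesins (25.0%), against 37.4% in tested genes and 35.7% in all windows. Matches of the 2 motifs can share at most 1 base. A match is a description of letters and not a shown site. Base composition differed between the sets. Median GC was 62.0% in mitotic and 71.8% in transport kinesin windows, 65.3% in tested genes and 58.3% in all windows. The part of base composition in the motif counts was not tested.

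The 250 bases before the start site are given for a mitotic kinesin that fell with both motifs (KIF23), one that did not pass with both (KIF11), the one that rose with TTTGAA only (KIF15) and the one with the largest fall, which held neither (KIF2C). All 4 are on the plus strand and written 5′ to 3′, with TTTGAA (on the other strand read as TTCAAA) and with CCAAT (on the other strand read as ATTGG) in capitals.
KIF23, chr15:69414099-69414348: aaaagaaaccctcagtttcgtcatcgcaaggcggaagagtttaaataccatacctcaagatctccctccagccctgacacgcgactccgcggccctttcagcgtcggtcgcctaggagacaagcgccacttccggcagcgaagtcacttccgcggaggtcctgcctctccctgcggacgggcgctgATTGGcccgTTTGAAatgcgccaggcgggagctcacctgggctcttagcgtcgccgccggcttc
KIF11, chr10:92592880-92593129: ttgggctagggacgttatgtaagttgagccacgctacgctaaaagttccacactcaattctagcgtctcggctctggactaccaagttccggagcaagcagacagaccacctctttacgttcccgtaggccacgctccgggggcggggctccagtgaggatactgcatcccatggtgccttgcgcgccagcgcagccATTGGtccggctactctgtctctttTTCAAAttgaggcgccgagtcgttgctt
KIF15, chr3:44761544-44761793: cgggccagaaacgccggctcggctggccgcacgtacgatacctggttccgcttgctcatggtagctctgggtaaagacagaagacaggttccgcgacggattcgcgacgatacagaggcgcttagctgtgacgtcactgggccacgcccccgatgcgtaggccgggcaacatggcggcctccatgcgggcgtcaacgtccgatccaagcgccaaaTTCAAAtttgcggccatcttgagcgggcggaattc
KIF2C, chr1:44739587-44739836: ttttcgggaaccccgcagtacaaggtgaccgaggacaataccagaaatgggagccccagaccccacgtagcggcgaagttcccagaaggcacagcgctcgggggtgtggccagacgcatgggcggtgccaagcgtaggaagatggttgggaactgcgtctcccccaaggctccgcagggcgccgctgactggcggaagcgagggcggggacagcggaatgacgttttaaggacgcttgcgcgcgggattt
The TTTGAA match began 55 bases before the start site in KIF23, 28 in KIF11 and 35 in KIF15. In KIF23 a CCAAT match in reverse lay at 64 bases before the start and in KIF11 at 53. Of the 3 mitotic kinesins that fell, KIF23 held TTTGAA while KIF2C and KIF20A did not, and KIF15, which rose, held it. Over all roles TTTGAA was present in 1 of 17 members that fell, 1 of 6 that rose and 7 of 22 that were tested and did not pass. Among dynactin genes CCAAT was present in 5 of the 7 with a window and TTTGAA in 0.

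The remaining kinesins have roles in signalling, cilia, centrioles and microtubule turnover. Of these, 1 of 7 tested passed (14.3%), against 38.1% of all tested genes. KIF26A (chromosome 14, 104138587 to 104180894), an unconventional kinesin without motor activity that restrains RET signalling in enteric neurons, stood at 11.1, 11.2 and 10.8 FPKM in shNC and 6.45, 6.40 and 7.10 FPKM in shTDP43. All shTDP43 values lay below the lowest shNC value, at 60.3% of control, with the lowest adjusted p of the members (log2 difference -0.65, SE 0.05; limma adjusted p = 3.58e-05). Its paralogue KIF26B had 25.0, 24.3 and 25.3 FPKM in shNC and 23.4, 24.7 and 24.6 FPKM in shTDP43, with overlapping groups (95% interval -0.11 to 0.04; limma adjusted p = 0.439). KIF2A, a microtubule depolymerase of axon branches and spindle poles, had 55.6, 53.4 and 55.0 FPKM in shNC and 53.7, 54.6 and 55.5 FPKM in shTDP43 (95% interval -0.06 to 0.06; limma adjusted p = 0.966). KIF7 of Hedgehog signalling, KIF9, KIF24 and KIF27 stood between 94.2% and 108% of control and did not pass, and KIF6, KIF12, KIF19 and KIF25 did not exceed 0.395 FPKM.

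Of 42 motor partners outside the 64 genes (other kinesins, adaptors and regulators), 41 were tested, with 11 lower and 3 higher, or 34.1% called, near the 38.1% of all tested genes. The 3 that rose were TRAK2, an adaptor for mitochondria, at 120.2% of control (limma adjusted p = 0.00173), KIFAP3, the kinesin-2 cargo subunit, at 111%, and WDR60, a dynein 2 intermediate chain, at 109.9% (limma adjusted p = 0.0434 and 0.0266). PAFAH1B1, which encodes the dynein regulator LIS1, fell to 87.3% of control (limma adjusted p = 0.000353). The count of risers was 1 without shNC replicate 1 or without shNC replicate 2. MADD, which links KIF1A and KIF1B to RAB3 vesicles, stood at 18.5, 17.8 and 17.5 FPKM in shNC and 14.9, 14.7 and 14.4 FPKM in shTDP43. It fell in every library to 81.7% of control (log2 difference -0.27, SE 0.04; limma adjusted p = 0.000637). TRAK2 had 12.0, 12.6 and 11.7 FPKM in shNC and 14.5, 14.9 and 14.3 FPKM in shTDP43, with all shTDP43 libraries higher. The dynein adaptor gene BICD1 had 34.7, 32.4 and 31.5 FPKM in shNC and 28.1, 28.2 and 28.1 FPKM in shTDP43, 85.5% of control (limma adjusted p = 0.00242). The kinesin-1 adaptor gene FEZ2 had 23.8, 24.6 and 21.2 FPKM in shNC and 19.5, 19.8 and 20.1 FPKM in shTDP43, 85.5% of control (limma adjusted p = 0.0132). SPAG9, which encodes a scaffold that binds kinesin-1 and dynactin, had 50.3, 49.2 and 50.4 FPKM in shNC and 44.0, 44.0 and 42.5 FPKM in shTDP43, 87.0% of control (limma adjusted p = 0.000658). In BICD1, FEZ2 and SPAG9 every shTDP43 library lay below every shNC library. CENPE, given above, fell to 82.5% of control (limma adjusted p = 0.00183).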

How the data were processed

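The authors deposited an FPKM value for each of 26372 genes in 6 libraries, made, per the submitters' processing notes, with TopHat2 2.1.0, SAMtools, Cuffdiff 2.2.1 and hg38, whose roles those notes do not state. Not given in the sources used here: annotation, use of strand, scaling between libraries. Poly(A) selection and directional library preparation are stated per the labels' protocols. The table holds no counts, so absolute depth is unknown.

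Values were analysed as log2(FPKM + 1) with limma 3.58.1 (R 4.3.3). The 13263 genes whose mean reached 1 FPKM were fitted with group as the only term and a variance trend, two-sided, with Benjamini-Hochberg adjustment over all of them and a threshold of 0.05. Percentages of control are ratios of mean FPKM, and changes of low genes are understated on the log2 scale. Exact permutation tests used SciPy 1.17.1. Members, lists and tests were chosen with earlier results of these data known. The genes named with full values were all members past the threshold, the most abundant member of each role, fixed paralogue sets, and the 6 partners past the threshold that changed most; further genes were named after their values were seen. Locations and promoters came from RefSeq GRCh38.p14 and exon overlaps from GENCODE on GRCh38. On simulated data for shTDP43 against shNC (13182 genes), limma found 8 of 49 true changes at 1.1-fold, 29 of 50 at 1.2-fold, 40 of 50 at 1.5-fold and 47 of 50 at 2-fold, plus 6 false ones. Only 200 genes were changed there, whereas 38.1% of genes passed in the data. The Benjamini-Hochberg adjustment is stricter with few changed genes, so these rates do not give the sensitivity of the real comparison. Alternatives tried were other pseudocounts, filters, scalings and variance models, a replicate block and left-out libraries.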

Additional observations from a re-analysis of the deposited data

How the results depend on the processing

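Of the 29 members past the threshold, 17 stayed past it in each of the 14 alternatives that tested them, 12 lost the call in at least 1, and none changed direction. The calls kept were 29 of 29 with a pseudocount of 0.1, quantile normalization or median centring, 28 of 28 with a mean of at least 5 FPKM, 24 without a filter on low values and 25 without a variance trend. Without both libraries low in SNORD3A 19 were kept, with 5 members higher. The share called over all tested genes, 38.1% in the main fit, was 25.0% in that setting. It was 24.6% without a filter and 35.4% without a variance trend. Leaving out 1 library gave between 5 and 8 members higher and between 15 and 21 lower, and between 1 and 3 partners higher. Over all tested genes between 30.3% and 33.0% were then called. KIF14 passed the threshold with a mean of at least 5 FPKM, without a filter, with quantile normalization and with median centring. DYNLRB1 passed with a mean of at least 5 FPKM, with the replicate block, and without shNC replicate 2 or shTDP43 replicate 3. KIF1A passed with a mean of at least 5 FPKM and without a filter. With quantile normalization KIF4A and KIF1C passed, as did KIF4A with a mean of at least 5 FPKM and KIF1C without a variance trend. TARDBP stayed lower in every alternative.

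The labels tie same-numbered libraries of the 2 groups by nothing but the number. Their deviations from the group means correlated at r = -0.07, 0.06 and 0.11. Those of different-numbered libraries ran from -0.20 to 0.13. With 3 libraries a group, these values cannot decide whether same-numbered libraries were handled together. With the replicate block 5 members were higher and 1 partner, and 24 of the 29 calls were kept. Over all tested genes 33.9% were called with the block.

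The median of the transport kinesins, 0.01 over 14 genes, was -0.0759 with a mean of at least 5 FPKM and -0.0453 without a filter on low values, so its sign depends on which low genes enter. Without a filter the medians were -0.0607 for mitotic kinesins, 0.17 for dynein 1 chains and -0.0510 for dynein light chains, which were -0.0416 with quantile normalization and ran from -0.145 to -0.0827 without 1 library. Without both low-SNORD3A libraries the medians were -0.0446 for mitotic kinesins and 0.16 for dynein 1 chains. The share of KIF3C in the KIF3 sum differed by 0.365 percentage points, and by between -0.0110 and 0.636 with 1 library left out, the lowest without shNC replicate 2. The cause of these shifts was not tested. Of the 10 members under 1 FPKM, 5 were listed at 0 in at least 1 library; absolute depth is unknown.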
